A study of Mus musculus with 4 samples.

Results

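The genes of plasminogen activation and of the serpins that fibroblasts make were followed in mouse embryonic fibroblasts, connective tissue cells grown from embryos. The members were chosen by gene name: Plat, Plau, Plaur, Serpine2, Serpinf1 and Serpinh1. Each was to be read from its brightest one-gene probe set, a group of array probes that the platform annotation assigns to a single gene. Of the 6 genes, 5 had such a probe set among 19938 genes in all, and each of the 5 had exactly 1. Serpine2, which encodes protease nexin-1, an inhibitor of the plasminogen activators and thrombin, was not analysed here.

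Plasminogen activators are secreted proteases that cut plasminogen, a circulating precursor, into plasmin, which dissolves fibrin and helps cells remodel the matrix around them. Urokinase is held at the cell surface by its receptor, and serpins are a protein family whose inhibitory members trap proteases by offering a bait loop. Some serpins, among them those of Serpinf1 and Serpinh1, inhibit no protease and serve as a secreted factor and as a collagen chaperone.

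The knockout-labelled cells are described by their genotype label, NFAT5/TonEBP knockout, and the others by the label wild type. NFAT5 (TonEBP) is the transcription factor that drives genes of osmotic adaptation under hypertonic stress. The 4 groups were knockout-labelled cells in hypertonic and in isotonic medium, and wild-type cells in hypertonic and in isotonic medium. Culture in the stated medium lasted 20 hours, and the hypertonic one was brought to 450 mosmol/kg by adding NaCl. Each group was 1 array hybridised with a pool of quadruplicate samples. No replicate spread could therefore be had, no test was made, and every value describes these 4 pools. The sources used here do not state how the knockout was made, which part of the gene it removes, the strain or the age of the embryos.

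Nfat5 itself had log2 signals of 8.24 and 8.03 on the knockout-labelled hypertonic and isotonic arrays, against 8.19 and 7.74 on the wild-type hypertonic and isotonic arrays. It did not read lower on the arrays labelled as knockout. The position of its probes relative to the deletion is unknown, so this reading does not check the label. Pearson correlations between arrays over 35557 probe sets were 0.979 to 0.989. The lowest were those of the knockout-labelled hypertonic array with the others, 0.979 to 0.984. Among the other arrays they were 0.985 to 0.989. Of 10 fibroblast markers, 8 were above the dim limit on each array, while Dcn and Lum were below it on all 4. The dim limit is the median signal of an array's one-gene probe sets and lay between 5.38 and 5.44. No endothelial marker of 6 was above it on any array.

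Upstream sequences of measured members are printed because Plaur and Serpinf1 had responses of opposite sign in the 2 genotypes, and Serpinh1 is the third measured member that RefSeq's promoter table (GRCm38.p6) lists. Each run is the 250 bases before the transcription start, 5′ to 3′ on the gene's strand. Capitals mark matches on either strand to TGGAAA (the constant part of the tonicity element that NFAT5 binds), TGANTCA (the AP-1 motif) or GAANNTTC (the heat shock element core).
Plaur: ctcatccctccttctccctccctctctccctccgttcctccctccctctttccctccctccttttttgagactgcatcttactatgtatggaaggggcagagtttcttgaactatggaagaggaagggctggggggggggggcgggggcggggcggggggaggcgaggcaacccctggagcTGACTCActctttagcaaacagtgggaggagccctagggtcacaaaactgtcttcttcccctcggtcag
Serpinf1: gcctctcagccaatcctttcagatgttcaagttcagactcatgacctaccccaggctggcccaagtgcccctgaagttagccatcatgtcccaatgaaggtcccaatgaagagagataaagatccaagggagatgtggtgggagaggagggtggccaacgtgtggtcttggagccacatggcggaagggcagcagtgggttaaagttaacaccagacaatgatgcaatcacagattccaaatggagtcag
Serpinh1: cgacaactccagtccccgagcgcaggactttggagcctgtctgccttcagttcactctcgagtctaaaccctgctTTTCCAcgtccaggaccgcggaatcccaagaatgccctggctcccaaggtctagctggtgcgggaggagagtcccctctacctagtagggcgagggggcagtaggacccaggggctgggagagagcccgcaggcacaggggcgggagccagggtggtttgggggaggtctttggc

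The Plaur run is chr7:24462233-24462482 on the plus strand, the Serpinf1 run is chr11:75422624-75422873 on the minus strand, and the Serpinh1 run is chr7:99353240-99353489 on the minus strand. The Plaur run held 1 AP-1 match, TGACTCA, at 69 to 63 bases before the start (positions -69 to -63). The Serpinh1 run held 1 match to the tonicity element's constant part, read as TTTCCA on the printed strand, at positions -175 to -170. The Serpinf1 run held none of the 3 motifs. Among 32851 promoter windows of the same length, 18.6% held TGGAAA, 6.75% held TGANTCA and 6.69% held GAANNTTC. The matches describe these letters and do not show binding.

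Signals below are log2 values as deposited, and a difference of 1 is 2-fold. Levels are set only against other arrays of the same probe set. The 5 members were above the dim limit on all 4 arrays, so none owes its presence to a single group.

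Plat encodes tissue-type plasminogen activator, the protease best known for dissolving fibrin clots. Its log2 signal was 6.65 in knockout-labelled hypertonic and 7.47 in knockout-labelled isotonic cells, against 7.69 in wild-type hypertonic and 7.39 in wild-type isotonic cells. The knockout-labelled hypertonic array was the low one, and the other 3 lay within 0.30 of each other. Its hypertonic minus isotonic difference was -0.82 in knockout-labelled cells and 0.30 in wild-type cells.

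Plau encodes urokinase, the activator that works at cell surfaces. It read 6.90 in hypertonic and 7.61 in isotonic knockout-labelled cells, and 6.87 in hypertonic and 7.73 in isotonic wild-type cells. Both hypertonic arrays were below both isotonic arrays, as was also the case for Serpinh1. The hypertonic minus isotonic difference was -0.71 in knockout-labelled and -0.86 in wild-type cells, and the genotypes differed by 0.04 in hypertonic and -0.11 in isotonic medium.

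Plaur encodes the urokinase receptor, which is anchored to the membrane by a lipid and concentrates urokinase there. Its signal was 7.13 in hypertonic and 6.64 in isotonic knockout-labelled cells, and 6.60 in hypertonic and 7.58 in isotonic wild-type cells. The highest array was thus wild-type isotonic and the lowest was wild-type hypertonic, with knockout-labelled isotonic only 0.04 above it. The hypertonic minus isotonic difference was 0.50 in knockout-labelled cells and -0.99 in wild-type cells. The wild-type difference, 1.98-fold, missed the 2-fold limit narrowly, and 46 of 10134 measured genes had one as low.

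Serpinf1 encodes pigment epithelium-derived factor, a secreted serpin known for restraining blood vessel growth. Its signal was 5.57 in hypertonic and 6.81 in isotonic knockout-labelled cells, against 7.08 in hypertonic and 6.67 in isotonic wild-type cells. The knockout-labelled hypertonic array was lowest, close above its dim limit of 5.41, where background adds to the signal and the size of a difference is poorly determined. The hypertonic minus isotonic difference was -1.25 in knockout-labelled cells and 0.41 in wild-type cells. The order of its arrays, from wild-type hypertonic down through knockout-labelled isotonic and wild-type isotonic to knockout-labelled hypertonic, was that of Plat.

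Serpinh1 encodes HSP47, a resident of the endoplasmic reticulum that binds folding procollagen. It read 7.67 in hypertonic and 8.40 in isotonic knockout-labelled cells, and 8.26 in hypertonic and 8.47 in isotonic wild-type cells. The knockout-labelled hypertonic array was again low, and the other 3 lay within 0.22 of each other. The hypertonic minus isotonic difference was -0.73 in knockout-labelled and -0.22 in wild-type cells.

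**Figure D1:**
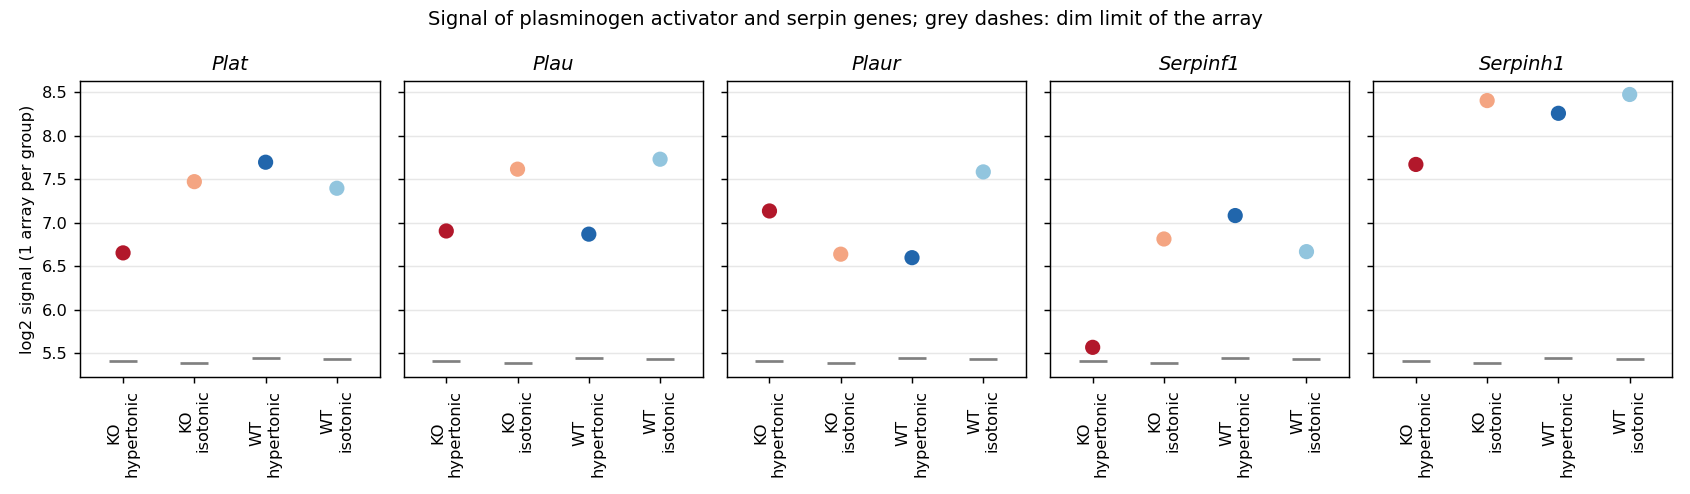
Log2 signal of the 5 measured genes on the 4 arrays, 1 point per array, with a grey dash at each array's dim limit. Plat, Serpinf1 and Serpinh1 are lowest on the knockout-labelled hypertonic array, Plau is low on both hypertonic arrays, and Plaur is highest on the wild-type isotonic array; heights are to be compared within a panel.

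The hypertonic response of knockout-labelled cells had 4 of the 5 members below 0 and Plaur above 0, with a median of -0.73 next to -0.09 over 10277 measured genes. Serpinf1 was the 1 member at least 2-fold lower, and none was at least 2-fold higher. Over all measured genes 3.08% were at least 2-fold lower and 0.379% at least 2-fold higher. The split of all genes, 39 higher and 317 lower, was 63 and 215 after quantile normalization and 66 and 233 after centring on the median, and quantile normalization moved the median of all genes from -0.09 to 0.01. Relative to that shift Serpinf1 remained past the limit, with values from -1.20 to -1.13 over the alternatives that rescale the arrays.

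The hypertonic response of wild-type cells had no member past 2-fold, where 1.01% of 10134 measured genes passed it upward and 0.414% downward. The members' median was -0.22, next to -0.02 over all measured genes. Plaur (-0.99) and Plau (-0.86), the receptor and its ligand, had the lowest values of the 5. Of all measured genes, 0.859% had a difference as low as that of Plau.

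**Figure D2:**
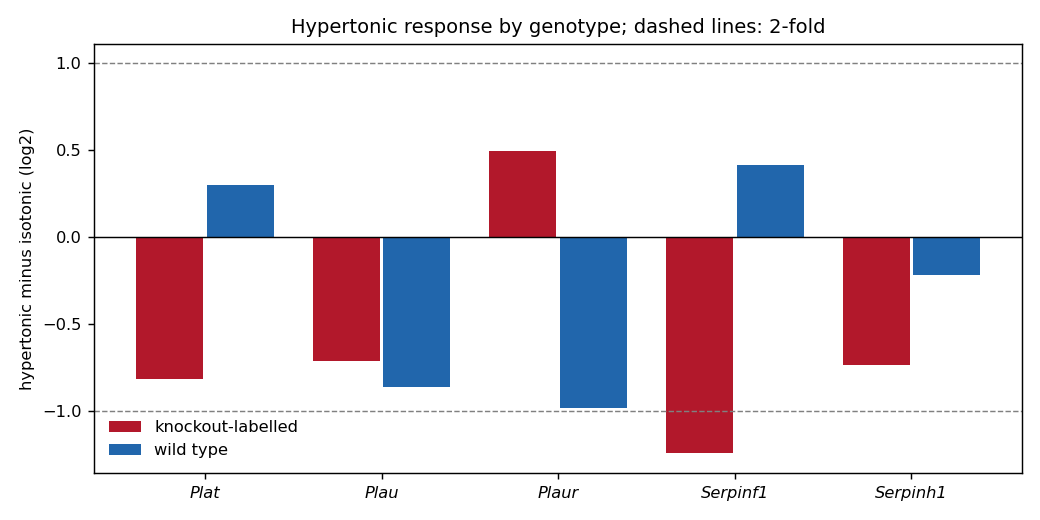
Hypertonic minus isotonic log2 difference of each gene, knockout-labelled cells left and wild-type cells right of each pair, with dashed lines at 2-fold. Plat and Serpinf1 are below 0 in knockout-labelled and above 0 in wild-type cells, Plaur is the reverse, and Plau and Serpinh1 are below 0 in both.

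Between genotypes in hypertonic medium, Serpinf1 was lower in knockout-labelled cells by a log2 difference of -1.51, or 2.86-fold, and Plat by -1.04, or 2.06-fold. The other members had differences of -0.59 (Serpinh1), 0.04 (Plau) and 0.54 (Plaur). Thus 2 of 5 members were at least 2-fold lower and none higher, where 6.43% of 10374 measured genes were at least 2-fold lower and 2.57% at least 2-fold higher. Plat lay so near the limit that its difference was -0.96 after quantile normalization. As low as Serpinf1 were 2.41% of measured genes, and as low as Plat were 5.83%.

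In isotonic medium 4 members differed little between genotypes, by 0.08 (Plat), -0.11 (Plau), 0.15 (Serpinf1) and -0.07 (Serpinh1). Plaur was lower in knockout-labelled cells by -0.95, or 1.93-fold, and 1.47% of 10191 measured genes had a difference as low. No member passed 2-fold, where 1.59% of measured genes passed it upward and 1.28% downward.

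**Figure D3:**
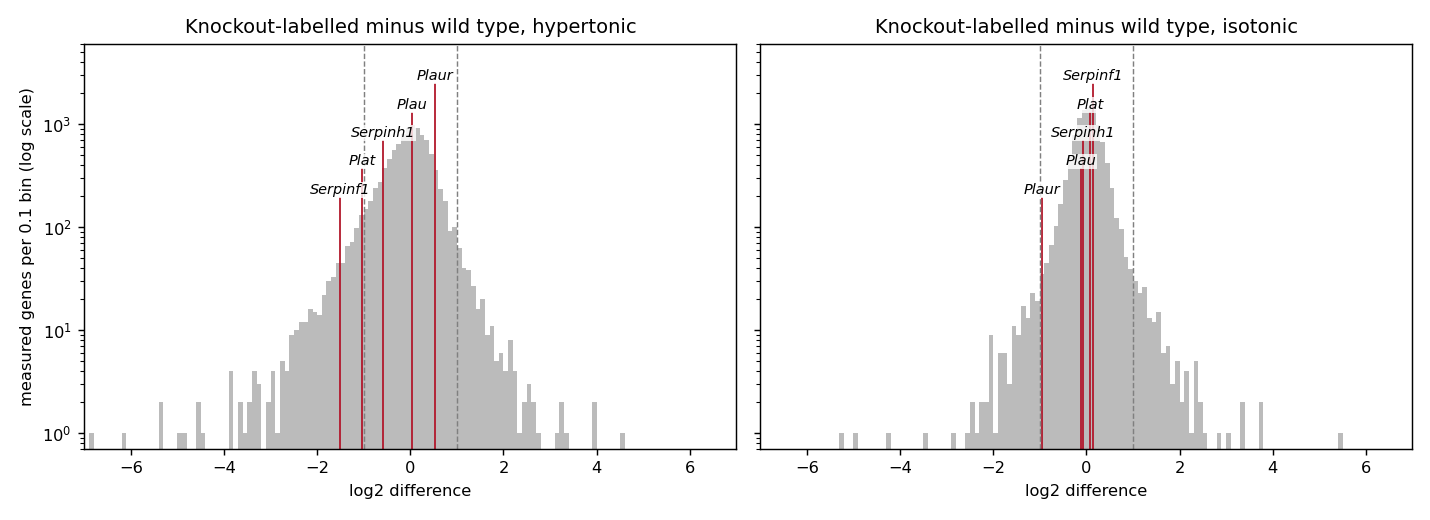
Histograms of the knockout-labelled minus wild-type log2 difference over measured genes, hypertonic medium left and isotonic right, with gene counts on a log axis, red lines at the 5 members and dashed lines at 2-fold. Serpinf1 (-1.51) and Plat (-1.04) lie left of the 2-fold line in hypertonic medium and near 0 in isotonic medium, where Plaur (-0.95) is the 1 member near that line.

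The difference of responses, knockout-labelled minus wild-type, was -1.66 for Serpinf1, -1.12 for Plat, -0.52 for Serpinh1, 0.15 for Plau and 1.48 for Plaur. So 2 of 5 members were at least 2-fold negative and 1 at least 2-fold positive, where 5.53% of 10542 measured genes were at least 2-fold negative and 1.41% at least 2-fold positive. Plat was -0.99 after quantile normalization, short of the limit. The value of Plaur was among the highest: 31 of the 10542 genes, or 0.294%, had one as high. As low as Serpinf1 were 1.11% of measured genes. These comparisons reuse the same 4 arrays, so the values of a gene in them are not separate evidence.

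A scale for error within an array came from genes read by 2 probe sets. In 95% of them the differences from both probe sets lay within 0.59 of each other in the knockout-labelled response (450 genes) and within 0.44 in the wild-type response (441 genes). For the genotype difference the figure was 0.64 in hypertonic and 0.58 in isotonic medium, and for the difference of responses it was 0.76. The responses of Plau exceeded it in both genotypes, that of Plaur in wild-type cells, and those of Plat, Serpinf1 and Serpinh1 in knockout-labelled cells. Genotype differences exceeded it for Plat and Serpinf1 in hypertonic medium and for Plaur in isotonic medium. In hypertonic medium Serpinh1 (-0.59) and Plaur (0.54) lay within it. In the difference of responses Plat, Plaur and Serpinf1 exceeded it, and Serpinh1 (-0.52) lay within it. This scale does not cover the spread between cultures or pools.

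Other genes of the plasmin system were taken from a list of 33 activators, receptors, clearance receptors, inhibitors and targets, of which 29 had a one-gene probe set. In the knockout-labelled response none of 17 measured genes passed 2-fold, and their median was 0.03. Over all measured genes 3.08% were at least 2-fold lower and 0.379% higher. In the wild-type response 1.01% of all measured genes were at least 2-fold higher and 0.414% lower. Of the 17 list genes, 2 were at least 2-fold higher and none lower, with a median of 0.11. These were Serping1, encoding the C1 inhibitor (1.41), and Itgb3, an integrin chain of the vitronectin receptor (1.04). Serping1 was above the dim limit only on the wild-type hypertonic array, at 5.92, so the size of its differences is poorly determined.

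In hypertonic medium 6.43% of all measured genes were at least 2-fold lower in knockout-labelled cells and 2.57% higher. Of 18 measured genes of the plasmin system list, 3 were at least 2-fold lower and 1 was higher, with a median of -0.17. The lower ones were Serping1 (-2.20), the collagen receptor gene Mrc2 (-1.57) and Vldlr (-1.17), encoding an endocytic receptor. The higher one was Mmp3, encoding stromelysin-1, whose signal was 6.38 in knockout-labelled and 4.08, below the dim limit, in wild-type hypertonic cells. Mmp3 was also the 1 gene of 16 past 2-fold in isotonic medium (1.44), where its wild-type signal of 4.19 was again below the dim limit. In the difference of responses 2 of 18 passed, both negative: Serping1 (-1.90) and, just past the limit, Thbd, encoding thrombomodulin. Thbd read 5.39 in hypertonic and 6.13 in isotonic knockout-labelled cells, and 6.09 in hypertonic and 5.83 in isotonic wild-type cells. The knockout-labelled hypertonic signal was below that array's dim limit of 5.41. The plasminogen-binding pair Anxa2 and S100a10 stayed within 0.20 of 0 in all 5 comparisons, and the clearance receptor gene Lrp1 likewise.

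Among the 46 other serpin genes with a one-gene probe set, at most 7 were measured in any comparison. Serpinb8, an intracellular serpin gene, was higher in knockout-labelled cells by 1.08 in hypertonic and 1.45 in isotonic medium, and Serpinb1a was lower by -2.01 and -1.36. The wild-type signals of Serpinb8, 5.69 in hypertonic and 5.47 in isotonic medium, were close above the dim limits of 5.44 and 5.43. The size of its differences is thus poorly determined. Serpinb9 differed by -1.09 in hypertonic medium. Serpinb1a on both knockout-labelled arrays and Serpinb9 on the knockout-labelled hypertonic array read below the dim limit, so their differences are partly set by background. Serpinb9b differed by -1.04 in isotonic medium and by -1.34 in the wild-type response, and its difference of responses was 1.66. On the wild-type hypertonic array it read 5.76, close above the dim limit of 5.44. The sizes of its wild-type response and difference of responses are thus poorly determined. Serpinb1a, Serpinb9 and Serpinb9b have close paralogs, so their probe sets may mix copies. Serpinf2, which encodes the plasmin inhibitor antiplasmin, was below the dim limit on all 4 arrays.

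The collagen folding and processing list covers genes of collagen folding, transport and processing, inside or outside the cell, with 4 collagen chains. Not all of them work beside HSP47. All its 27 genes with a one-gene probe set were measured. In the knockout-labelled response 3.08% of all measured genes were at least 2-fold lower and 0.379% higher, with a median of -0.09. Of the 27 list genes, 5 were at least 2-fold lower and none higher, with a median of -0.44. They were the crosslinking enzyme gene Lox (-1.59), Col1a2 (-1.20), Crtap, encoding a part of the prolyl 3-hydroxylation complex (-1.18), the lysyl hydroxylase gene Plod2 (-1.14) and the prolyl 4-hydroxylase gene P4ha1 (-1.12). In the wild-type response none of 27 passed, and the median was 0.09. Over all measured genes 1.01% were at least 2-fold higher and 0.414% lower, with a median of -0.02. Serpinh1, at -0.73 and -0.22, was below the list's median in both genotypes.

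In hypertonic medium 6.43% of all measured genes were at least 2-fold lower in knockout-labelled cells and 2.57% higher, with a median of -0.01. Of the 27 list genes, 8 were at least 2-fold lower and none higher, with a median of -0.40. The collagen chains Col3a1 (-1.67), Col1a1 (-1.64) and Col1a2 (-1.41) were among them, with Lox (-1.57), P3h2 (-1.41), Plod2 (-1.40), Crtap (-1.34) and P3h4 (-1.07). In isotonic medium none of 27 passed and the median was -0.13. In the difference of responses 5 were at least 2-fold negative, and the median was -0.55, near the -0.52 of Serpinh1.

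**Figure D4:**
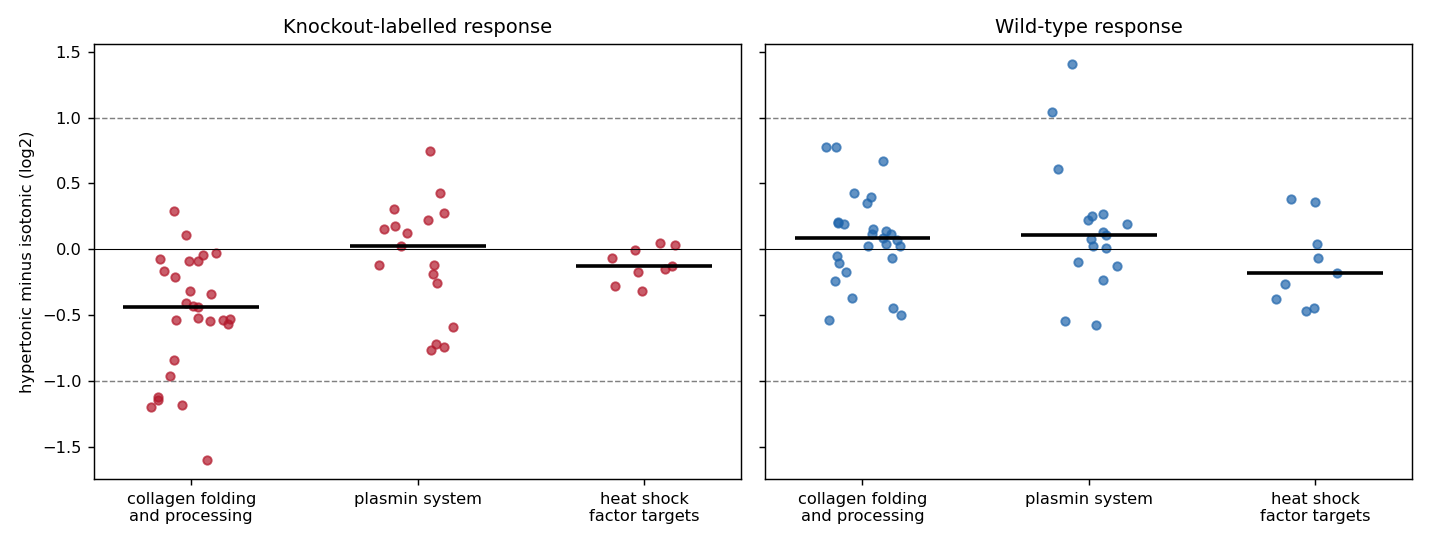
Hypertonic minus isotonic log2 difference of measured genes of 3 lists, knockout-labelled response left and wild-type response right, 1 point per gene, with black bars at list medians and dashed lines at 2-fold. Collagen folding and processing genes have a median of -0.44 in knockout-labelled and 0.09 in wild-type cells, while plasmin system genes have medians of 0.03 and 0.11.

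Serpinh1 is known as a heat shock gene, so the heat shock factor targets were also followed. None of 9 measured targets passed 2-fold in the response of either genotype, with medians of -0.12 in knockout-labelled and -0.18 in wild-type cells. Between genotypes in hypertonic medium 7 of the 9 targets were above 0, with a median of 0.16. Hspa1a, encoding an inducible HSP70, was the 1 target at least 2-fold lower in knockout-labelled cells, by -1.03. Over all measured genes 6.43% were at least 2-fold lower there. Of 5 measured binding partners of the Serpinf1 protein, Plxdc2, encoding a receptor for it, was higher by 1.04 in the wild-type response and lower in knockout-labelled cells by -2.42 in hypertonic and -1.10 in isotonic medium. Its difference of responses was -1.32. The knockout-labelled hypertonic signal of Plxdc2, 5.71, was close above that array's dim limit of 5.41. The sizes of its hypertonic genotype difference and difference of responses are thus poorly determined. The other 4 partners were within 2-fold in all 5 comparisons.

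For the members whose arrays spanned at least 2-fold, Plat and Serpinf1, the genes with the most similar pattern over the 4 arrays were looked up among 10227 genes, as the root mean square distance between profiles centred on their means. The nearest to Serpinf1 was Plod2 (0.05), with a knockout-labelled response of -1.14 and a wild-type response of 0.43, followed by Cntln (0.06) and Wdr34 (0.07). Cntln read 4.65 on the knockout-labelled hypertonic array, below the dim limit. The nearest to Plat were Cnpy2 (0.03), Cirbp, encoding a cold-inducible RNA-binding protein (0.04), and Trpt1 (0.04). Trpt1 read 5.40 on the knockout-labelled hypertonic array, just below that array's dim limit of 5.41. With 4 points per gene, near patterns are easily found.

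Some cell type markers differed between the genotypes. Of the 8 measured fibroblast markers, 5 were at least 2-fold lower in knockout-labelled cells in hypertonic medium and 1 in isotonic medium, with medians of -1.48 and -0.35. Over all measured genes 6.43% and 1.28% were at least 2-fold lower. Col1a1, Col1a2 and Col3a1, among the 5, were also counted in the collagen list. Not all markers moved: in hypertonic medium Vim differed by -0.07 and Fn1 by 0.23. The log2 summed level of the fibroblast list was 13.62 and 14.07 in knockout-labelled hypertonic and isotonic cells, against 14.32 and 14.25 in wild-type hypertonic and isotonic cells. The log2 summed level of the muscle list, mostly the myofibroblast gene Acta2, was 9.46 and 9.83 in knockout-labelled cells, against 11.73 and 11.24 in wild-type cells, and Myod1, Myog and Des were below the dim limit throughout. The neural marker Tubb3 was lower in knockout-labelled cells by -1.07 in hypertonic and -2.09 in isotonic medium. Its knockout-labelled isotonic signal, 5.42, was close above that array's dim limit of 5.38, so the size of its isotonic difference is poorly determined. No measured epithelial or blood marker passed 2-fold between genotypes in either medium. In a pool, fewer cells of a kind and less RNA per cell cannot be told apart, and the part of these shifts in the values of Plat, Serpinf1 and Serpinh1 was not tested.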

How the data were processed

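Per the labels' protocols, poly(T)-primed, amplified and biotin-labelled cRNA of each pool was read on an Affymetrix Mouse Gene 1.0 ST array. The authors deposited 1 log2 signal per probe set and array; that the values are log2 was inferred from their range, 1.57 to 13.94. MAS5 is named, with no version, per the submitters' processing notes; the sources used here do not state the background correction, normalization or genome build. Values were used as deposited.

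Of 35557 probe sets, 21789 had 1 gene symbol and were used; 1621 had several and 12147 none. Symbols were updated through Entrez identifiers, by which 21698 of the 21789 probe sets matched RefSeq. Where a gene had several probe sets, the one with the highest mean was used. A gene counted as measured if it was above the dim limit on at least 1 array compared. Genes were counted past 2-fold; with 1 array per group there is no p-value or standard error, and the number of arrays limits the precision. Results were recomputed with quantile or cyclic loess normalization, differences centred on the median, the dim limit dropped or raised to the 75th percentile, probe sets averaged, and a 1.5-fold limit.

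Named genes are the members, context-list genes past 2-fold in any comparison, or otherwise the 2 largest, and the 3 nearest patterns for members spanning 2-fold; the text uses a subset, and genes named for levels within the limits (Anxa2, S100a10, Lrp1, Serpinf2, markers) were picked after their values were seen. The members and lists were chosen with earlier results of these data known. The housekeeping list, 11 measured genes, had medians from -0.03 to 0.05 over the comparisons. The epithelial list had 3 or 4 of 7 markers above the dim limit, the blood list at most 1 of 6 and the neural list 2 of 4 on each array. The counting step was tested on simulated data with planted changes larger than 2-fold in bright genes. That test does not bear on member calls near 2-fold. Python 3.11.15, pandas 2.3.3, numpy 2.4.6, matplotlib 3.10.9, R 4.3.3 and limma 3.58.1 were used.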

Additional observations from a re-analysis of the deposited data

Results flagged for a closer look

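Plat, Plaur and Serpinf1 had hypertonic responses of opposite sign in knockout-labelled and wild-type cells, each from 1 array per group, and the difference between the genotypes was not tested. The difference of responses, knockout-labelled minus wild-type, was -1.12 for Plat, 1.48 for Plaur and -1.66 for Serpinf1. For Plat and Serpinf1 the wild-type responses, 0.30 and 0.41, lay within the 0.44 that 95% of genes read by 2 probe sets kept to, and so did the 0.50 of Plaur in knockout-labelled cells within its 0.59.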

How the results depend on the processing

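All 100 recomputed member differences (5 genes, 5 comparisons, 4 rescaling or averaging alternatives) kept their sign and moved by at most 0.16, within the SD per probe set of their comparison. Averaging probe sets could not move any of them, because each member had 1 probe set. Only the rescaling alternatives bear on this. The counts of members moved more. With the dim limit at the 75th percentile, members at least 2-fold lower were 0 in the knockout-labelled response and 1 in the hypertonic genotype difference and in the difference of responses, and 0 were positive there, because 1, 2 and 3 of the 5 were then measured. At that limit 110 of 5281, 319 of 5446 and 270 of 5675 measured genes were at least 2-fold lower in these comparisons, in that order. In the difference of responses 68 of 5675 were at least 2-fold positive. After quantile normalization 1 member was at least 2-fold lower in the hypertonic genotype difference and 1 at least 2-fold negative in the difference of responses, since Plat became -0.96 and -0.99. Of all measured genes, 593 of 10374 and 492 of 10542 were then as far negative. With a 1.5-fold limit 4 members were lower in the knockout-labelled response, 2 in the wild-type response and 1 in the isotonic genotype difference. The counts over all measured genes at that limit were 1237 of 10277, 334 of 10134 and 394 of 10191. The other member counts stayed within 1.5 times. Over all genes, those higher in the knockout-labelled response were 39, or 63 after quantile normalization and 66 after centring, and positive differences of responses were 149, or 246 with no dim limit; the 75th percentile and 1.5-fold limits change all such counts by construction. No paired analysis was possible because each group is 1 array. Signal near the dim limit limits Serpinf1 in knockout-labelled hypertonic cells.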
